A study of Mus musculus with 4 samples.

Results

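The imprinted *Dlk1* to *Mirg* locus of chromosome 12 was followed through 6 genes, out of 32158 in the count matrices that have a known position. *Dlk1* and *Rtl1* are expressed from the paternal chromosome, and *Meg3*, *Rian*, *B830012L14Rik* and *Mirg* from the maternal one. The 6 genes were chosen by their measured difference between *Ets1* eKO and control in earlier results of these same libraries. That difference is therefore described without a test and supports nothing here. The maternal and paternal sides were set beside each other, and their detection within the same endocardial cells was counted.

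Single cells came from mouse ventricles at embryonic day 14.5, on a C57BL/6 background, with embryos of both sexes that were not typed for sex. All embryos carried Tie2Cre, which is active in endothelium and endocardium and in part of the blood lineage. The 2 control libraries were Tie2Cre; Ets1 fl/+, so that controls also carry Cre and 1 floxed allele, and the 2 eKO libraries were Tie2Cre; Ets1 fl/fl. Each library pooled 3 ventricles and all 4 are labelled as 1 batch, so the library is the unit (n = 2 per group) and embryos within a pool cannot be told apart.

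Control replicate 1 gave 124140739 UMIs (unique molecular identifiers) over 12641 barcodes and control replicate 2 gave 76931208 over 7949. The eKO libraries gave 95131419 UMIs over 10010 barcodes in replicate 1 and 102872196 over 14951 in replicate 2. Median depth was 8630 and 8369 UMIs per barcode in the controls and 8222 and 5632 in eKO, and eKO replicate 2 was the shallowest library. Any pair of libraries shared between 19 and 47 barcode sequences. CPM below stands for UMIs of 1 gene for each 1000000 UMIs summed over a cell class in 1 library.

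In imprinted loci, 1 parental copy of a gene is silenced by marks set in the germ line. On this chromosome the paternal copy gives *Dlk1*, a transmembrane protein related to the Notch ligands that lacks the domain canonical ligands use to activate the receptor, and *Rtl1*, a protein derived from a retrotransposon. The maternal copy gives a chain of noncoding RNAs that starts at *Meg3* and carries small nucleolar RNAs in *Rian* and microRNAs in *Mirg*. Allele of origin is background knowledge here, since UMI counts do not record it.

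The identifiers are ENSMUSG00000040856 (*Dlk1*), ENSMUSG00000085925 (*Rtl1*), ENSMUSG00000021268 (*Meg3*), ENSMUSG00000097451 (*Rian*), ENSMUSG00000098202 (*B830012L14Rik*) and ENSMUSG00000097391 (*Mirg*). The 6 genes lie within 296638 bases of chromosome 12 (GRCm38, GENCODE vM21), from the start of *Dlk1* at 109452823 to the end of *Mirg* at 109749460. *Meg3* starts 88178 bases after *Dlk1*, *Rian* 151117, *B830012L14Rik* 242763 and *Mirg* 276941 bases after it, all on the plus strand. *Rtl1* (109589193 to 109600330) lies on the minus strand, and the maternally expressed antisense RNA opposite it is not a gene of its own in the matrices. Whether the counting used strand is not stated, and whether UMIs of *Rtl1* include its antisense RNA was not tested. Over all barcodes the matrices held 17375 UMIs of *Dlk1*, 110831 of *Meg3*, 16840 of *Rian*, 4715 of *B830012L14Rik*, 1899 of *Mirg* and 458 of *Rtl1*.

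Of 5 promoter entries for the locus genes, 1 for each of *Dlk1* and *Meg3* is printed because *Dlk1* and *Meg3* moved together in mural endocardial cells and the deleted factor belongs to the ETS family, whose members bind a GGAA core. Both windows hold 300 bases on the plus strand (RefSeq, GRCm38.p6), and the capitals mark GGAA or its reverse complement TTCC.
*Dlk1*, chr12:109452573-109452872: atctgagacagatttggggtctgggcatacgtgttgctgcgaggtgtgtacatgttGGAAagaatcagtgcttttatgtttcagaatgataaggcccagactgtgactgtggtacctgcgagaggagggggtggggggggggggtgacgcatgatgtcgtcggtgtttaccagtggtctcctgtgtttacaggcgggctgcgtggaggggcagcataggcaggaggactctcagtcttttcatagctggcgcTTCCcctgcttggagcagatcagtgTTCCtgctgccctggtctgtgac
*Meg3*, chr12:109540746-109541045: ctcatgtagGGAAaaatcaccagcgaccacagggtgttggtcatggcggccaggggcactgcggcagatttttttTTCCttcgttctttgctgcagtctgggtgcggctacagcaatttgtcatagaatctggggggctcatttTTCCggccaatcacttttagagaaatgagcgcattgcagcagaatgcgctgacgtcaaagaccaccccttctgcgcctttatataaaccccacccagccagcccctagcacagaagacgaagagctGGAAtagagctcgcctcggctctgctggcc
The *Dlk1* window holds 3 matches on both strands together and this *Meg3* window 4. The entries not printed are a second one of *Meg3* (5 matches, 1 CG pair), *Rian* (6 matches, 0 CG pairs, 1 AGGAAG) and *Mirg* (2 matches, 10 CG pairs). Of 32851 promoters of the same length, 96.0% hold at least 1 match and the median is 3. The longer motif CGGAAG is in 16.9% of promoters and in neither printed window, and AGGAAG is in 35.4% and in neither of them. The *Dlk1* window has 9 CG pairs and the printed *Meg3* window 13, against a median of 7. A match is a description of the letters only.

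The maternal transcripts also span microRNA genes, of which RefSeq lists 60 with a mature sequence between the start of *Dlk1* and the end of *Mirg*, 57 of them on the plus strand. *Mirg* contains 14, *Rian* 3 and *Meg3* 2 on their own strand, 26 lie between *Rian* and *Mirg*, and 6 lie opposite *Rtl1*. They are shown because they stand for the maternal product that the counts of *Rian* and *Mirg* border on, with the seed (bases 2 to 8) in capitals.
miR-127-3p, opposite *Rtl1*: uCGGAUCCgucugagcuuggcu
miR-136-5p, opposite *Rtl1*: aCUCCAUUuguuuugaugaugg
miR-370-5p, within *Rian*: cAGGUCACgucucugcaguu
miR-1193-3p, between *Rian* and *Mirg*: uAGGUCACccguuuuacuauc
miR-410-3p, within *Mirg*: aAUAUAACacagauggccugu
Among the 112 mature entries, 92 seeds occur once and 10 occur in a pair, such as the one shared by miR-370-5p and miR-1193-3p. Libraries of this kind count polyadenylated RNA at its 3′ end, so no mature microRNA was measured.

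*Ets1*, the deleted gene, was checked first. Mural endocardial cells held 280 and 266 CPM in the controls against 121 and 97.7 CPM in eKO. The log2 fold change was -1.27 ± 0.14 (SE; edgeR quasi-likelihood, Benjamini-Hochberg adjusted p = 0.000521), and both eKO libraries lay below both controls. Valve endocardial cells held 267 and 269 CPM against 111 and 105 CPM, and coronary endothelial cells 373 and 329 CPM against 178 and 127 CPM. On the log2 scale these fell by 1.27 ± 0.17 (edgeR quasi-likelihood, Benjamini-Hochberg adjusted p = 0.00160) and by 1.12 ± 0.17 (adjusted p = 0.0155). Cushion mesenchymal cells, part of which arise from endocardium, went from 82.7 and 79.1 CPM to 45.4 and 42.5 CPM (log2 fold change -0.82 ± 0.16, edgeR quasi-likelihood, Benjamini-Hochberg adjusted p = 0.0383). Cardiomyocytes held 6.12 and 6.35 CPM against 9.18 and 8.86 CPM and did not pass the test (edgeR quasi-likelihood, Benjamini-Hochberg adjusted p = 0.415). Fibroblasts held 101 and 94.5 CPM against 68.5 and 66.6 CPM, with both eKO libraries below both controls. That change (log2 fold change -0.44 ± 0.13) did not pass the same test either (adjusted p = 0.358). The counts do not show which part of *Ets1* a UMI came from, so remaining UMIs may or may not include the floxed part.

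Cells were assigned to classes by the summed level of marker genes, and each class is named for the list it scored highest on, so a class name stands for cells with that marker pattern. Mural endocardial cells, which line the ventricular wall, numbered 880 and 615 in the controls and 751 and 1332 in eKO. Of these, 41, 43, 77 and 168 lay within 0.05 of a cutoff. This was the cutoff on the score or on its lead over the next list, for the class or the subclass. Valve endocardial cells, which cover the cushions, numbered 146, 145, 164 and 214, and coronary endothelial cells 387, 202, 315 and 528. *Npr3*, a marker of mural endocardium, stood at 963, 891, 868 and 707 CPM in the mural class and between 119 and 192 CPM in the valve class. *Nfatc1*, a marker of valve endocardium, stood between 334 and 379 CPM in the valve class and at 97.1, 94.9, 54.9 and 36.1 CPM in the mural class. *Fabp4*, a marker of coronary vessels, stood between 5980 and 9149 CPM in the coronary class and at 30.4, 24.4, 72.3 and 84.7 CPM in the mural class. When the same cells were clustered without the 6 locus genes, the mural cells formed clusters of unequal make-up. One cluster of 1028 cells drew 607 and 393 from the controls and 23 and 5 from eKO, and one of 1148 cells drew 42 and 41 against 446 and 619.

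Taken as levels, the paternal *Dlk1* and the maternal RNAs were both highest in epicardial cells but ranked the remaining classes differently. *Dlk1* in epicardial cells, the outer layer of the heart, stood at 1303 and 858 CPM in the controls against 996 and 1113 CPM in eKO. Mural endocardial cells came next in the controls, at 105 and 78.2 CPM, followed by fibroblasts at 66.4 and 52.3 CPM, with no overlap between the gated classes in this order. With classes taken from clusters, fibroblasts held 129 and 77.4 CPM and mural cells 101 and 76.8 CPM in the controls. Those classes overlapped, so their order depends on the gate. Cushion mesenchymal cells held 12.4 and 9.62 CPM and valve endocardial cells 6.01 and 3.74 CPM in the controls. Immune cells (2.04 and 0 CPM), coronary endothelial cells (0.733 and 1.01 CPM) and cardiomyocytes (0.931 and 0.804 CPM) overlapped at the low end.

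*Meg3*, the noncoding RNA that opens the maternal chain, stood at 3029 and 2850 CPM in epicardial cells of the controls and at 2835 and 2622 CPM in eKO. Fibroblasts (850 and 984 CPM), cushion mesenchymal cells (733 and 880 CPM) and valve endocardial cells (877 and 654 CPM) of the controls came next, and neighbours in this order overlapped. Cardiomyocytes followed at 106 and 146 CPM and mural endocardial cells at 59.3 and 64.0 CPM, so the mural class was high for *Dlk1* and low for *Meg3*. The 10% of mural cells with the most *Meg3* UMIs held 92.9% and 86.9% of them in the controls and 52.6% and 53.5% in eKO. For *Dlk1* these were 65.1% and 65.4% against 48.5% and 45.4%. Immune cells held 8.18 and 7.02 CPM, from 8 and 4 UMIs, and coronary endothelial cells 6.78 and 6.04 CPM. *Rian*, a host of small nucleolar RNAs, had a mean of 366 CPM in epicardial cells of the controls, 108 in fibroblasts, 92.8 in cushion cells, 86.6 in valve, 30.0 in cardiomyocytes, 11.2 in mural and 1.04 in coronary cells. *B830012L14Rik*, a noncoding transcript between *Rian* and *Mirg*, kept the same order from 106 CPM in epicardial to 3.20 CPM in mural cells, with 0 UMIs in coronary and immune cells of the controls. *Mirg*, the host of microRNAs, had a mean of 35.8 CPM in epicardial, 14.1 in cushion, 12.9 in fibroblast and 10.5 CPM in valve cells of the controls, where fibroblasts overlapped with both neighbours and cushion cells did not overlap with valve cells. For *Rian* fibroblasts overlapped with cushion cells and cushion with valve cells, and for *B830012L14Rik* cushion with valve cells but not fibroblasts with cushion cells. Mural cells and cardiomyocytes held 2.45 and 2.43 CPM of *Mirg* and overlapped.

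*Rtl1*, the other paternally expressed gene, was close to the limit of detection. Its mean in the controls was 7.19 CPM in epicardial cells, 4.71 in fibroblasts, 3.49 in cushion cells, 2.25 in valve cells, 0.281 in cardiomyocytes and 0.210 CPM in mural cells. Epicardial cells overlapped with fibroblasts, cushion with valve cells, and cardiomyocytes with mural cells. Coronary endothelial and immune cells of the controls held 0 UMIs, and a count of 3 over both control libraries would have been 0.356 and 1.94 CPM there. In mural endocardial cells *Rtl1* rested on 3 and 0 UMIs in the controls and 7 and 6 in eKO, too few to enter the test.

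**Figure D1:**
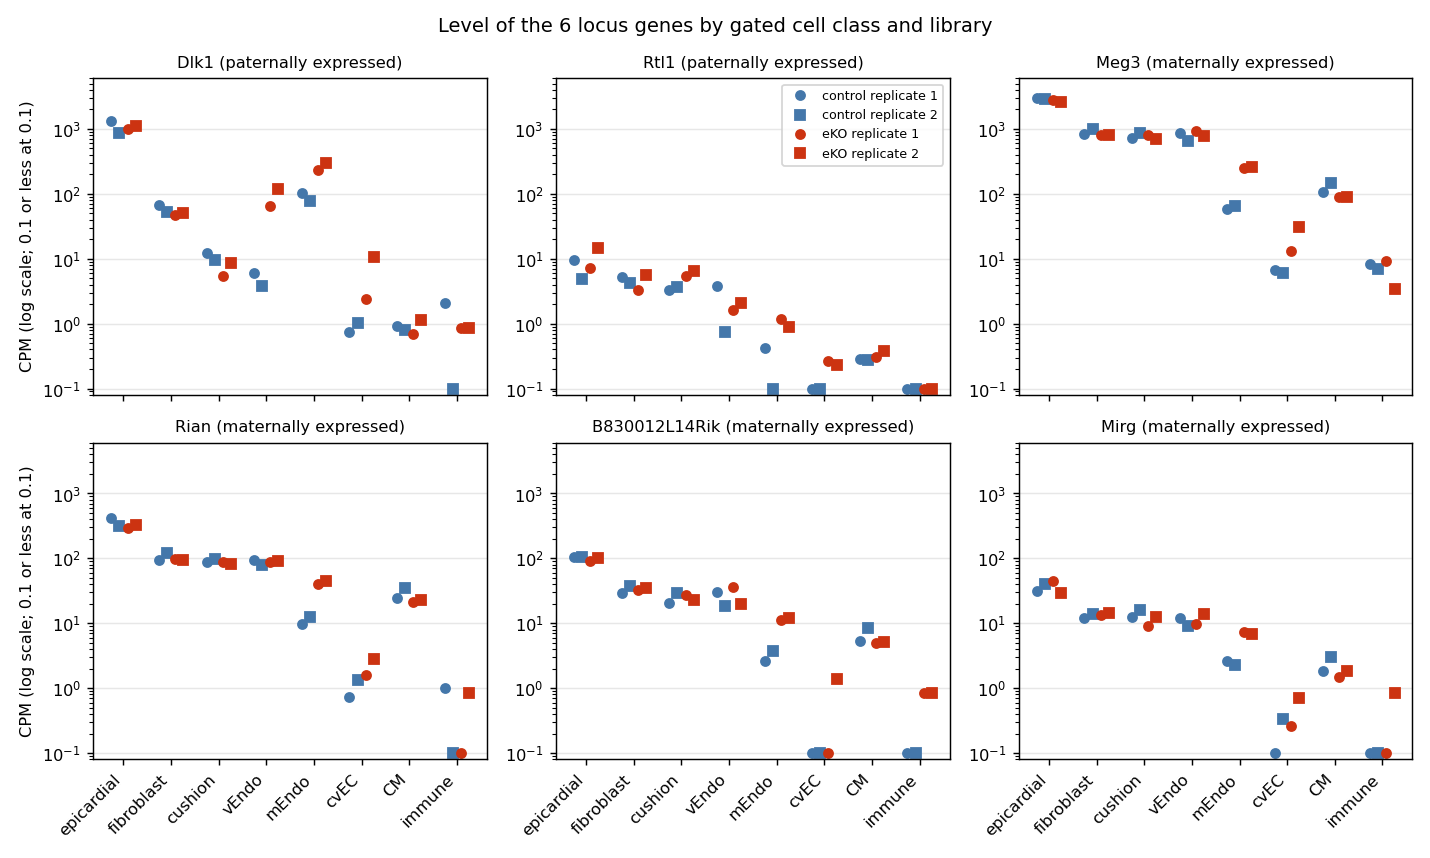
Level (CPM, log scale, values of 0.1 or less drawn at 0.1) of the 6 locus genes in 8 gated cell classes, 1 point per library, with controls in blue and eKO in red. *Dlk1* in mural endocardial (mEndo) cells was 105 and 78.2 CPM in the controls against 233 and 294 CPM in eKO, and *Meg3* was 59.3 and 64.0 against 254 and 263 CPM (vEndo, valve endocardial; cvEC, coronary endothelial; CM, cardiomyocyte).

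Differences between classes in the controls did not choose the genes. The gates, however, were set after the levels of the locus genes in each class had been seen, so these tests are not independent of those levels. Over 4 pairs of classes, 22 such tests of a locus gene were made. In 5 of these the gene passed the filter on low counts only through the class where it was high, so it could be called in 1 direction only, and these are given as levels. *Dlk1* in coronary cells and *Mirg* in mural cells set against valve cells passed through eKO libraries only. They are given as levels for these pairs too. Of mural against coronary endothelial cells, 61.4% of 12882 genes differed, and *Meg3* entered through controls of both classes. Its log2 difference was 3.04 ± 0.22 (edgeR quasi-likelihood, Benjamini-Hochberg adjusted p = 4.91e-12). *Dlk1* stood at 105 and 78.2 CPM in mural cells of the controls and at 0.733 and 1.01 CPM, from 4 and 3 UMIs, in coronary cells. Mean coronary levels of *Dlk1* (0.870 CPM) and *Meg3* (6.41 CPM) were no higher than those of immune cells (1.02 and 7.60 CPM). Both genes are thus compared with a class at background. *Rian*, *B830012L14Rik* and *Mirg* entered through mural cells only. Coronary cells of the controls held 4 and 4 UMIs of *Rian*, 0 and 0 of *B830012L14Rik* and 0 and 1 of *Mirg*, against 70 and 67, 19 and 20, and 19 and 12 UMIs in mural cells.

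Within the endocardium *Dlk1* and the maternal RNAs differed in opposite directions, and *Rtl1* was not tested. Mural cells held more *Dlk1* than valve cells in the controls, by 4.24 ± 0.26 on the log2 scale (edgeR quasi-likelihood, Benjamini-Hochberg adjusted p = 1.11e-11). Valve cells of the controls held 8 and 5 *Dlk1* UMIs, 8 and 2 of them in mural clusters and 0 and 3 in valve clusters. Their level (6.01 and 3.74 CPM) lay within that of barcodes rich in globin (1.47 and 7.68 CPM), so the exact size of the *Dlk1* difference is not read. Mural cells held less *Meg3*, with a log2 difference of -3.60 ± 0.12 (edgeR quasi-likelihood, Benjamini-Hochberg adjusted p = 5.90e-16). *Rian* (-2.95 ± 0.18) and *B830012L14Rik* (-2.92 ± 0.35) were lower too. Their adjusted p-values (edgeR quasi-likelihood, Benjamini-Hochberg) were 2.02e-11 and 7.74e-07. *Mirg*, given as levels, held 2.66 and 2.24 CPM in mural and 12.0 and 8.98 CPM in valve cells of the controls. *Dlk1*, *Meg3*, *Rian* and *B830012L14Rik* differed between these classes, and so did 26.3% of 12489 genes.

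Between mural and mesenchymal cells 55.8% of 14497 genes differed, and all locus genes but *Rtl1* entered through both classes. *Dlk1* was higher in mural cells by 1.05 ± 0.11 (edgeR quasi-likelihood, Benjamini-Hochberg adjusted p = 1.88e-06). The 4 maternal genes were lower, from -3.74 ± 0.10 for *Meg3* (edgeR quasi-likelihood, Benjamini-Hochberg adjusted p = 6.99e-13) to -2.37 ± 0.23 for *Mirg* (adjusted p = 9.26e-07). *Rtl1* held 3 and 0 UMIs in mural and 80 and 68 UMIs in mesenchymal cells of the controls. Whether these include its maternally expressed antisense RNA was not tested. Mesenchymal cells held more *Dlk1* and more of the 4 maternal genes than cardiomyocytes, in a comparison where 73.2% of 16839 genes differed and *Rtl1* entered through mesenchymal cells only. That log2 difference was 5.35 ± 0.17 for *Dlk1* and 1.34 ± 0.09 for *Rian*, the highest and the lowest of the 5 (edgeR quasi-likelihood, Benjamini-Hochberg adjusted p = 1.48e-10 and 1.21e-07). Cardiomyocytes of the controls held a mean of 0.867 CPM of *Dlk1*, no higher than immune cells (1.02 CPM). The *Dlk1* difference is thus against a class at background, and its exact size is not read.

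In mural endocardial cells, all 6 genes were at a higher level in both eKO libraries than in both controls, *Rtl1* among them on few UMIs (0.420 and 0 CPM against 1.16 and 0.880 CPM). *Dlk1* was at 105 and 78.2 CPM in the controls against 233 and 294 CPM in eKO (log2 fold change 1.57 ± 0.17, SE). *Meg3* was at 59.3 and 64.0 CPM in the controls against 254 and 263 CPM in eKO (log2 fold change 2.11 ± 0.13). The eKO libraries thus lay close together for *Meg3* and further apart for *Dlk1*. *Rian* went from 9.81 and 12.5 CPM to 39.8 and 44.2 CPM (log2 fold change 1.97 ± 0.19), and *B830012L14Rik* from 2.66 and 3.73 CPM to 11.3 and 11.9 CPM (1.92 ± 0.28). *Mirg* went from 2.66 and 2.24 CPM to 7.30 and 6.75 CPM (1.55 ± 0.31). How many of all genes in this class also had groups without overlap was not counted, so nothing is read from the lack of overlap here. This difference is also what the 6 genes were chosen by.

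In this class 429 of 12597 genes (3.41%) were called, 200 higher and 229 lower. The number called was 188 without control replicate 1, 145 without control replicate 2 and 974 without eKO replicate 1. By size of log2 fold change, *Meg3* ranked 32, *Rian* 40, *B830012L14Rik* 45, *Dlk1* 90 and *Mirg* 93 among the genes tested. The genes were chosen by this difference, so nothing is read from the ranks.

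The proportions among the maternal RNAs were compared as ratios of UMIs within each library. For every 100 *Meg3* UMIs in mural cells there were 16.5 and 19.5 *Rian* UMIs in the controls and 15.7 and 16.8 in eKO. For *B830012L14Rik* these were 4.49 and 5.83 against 4.44 and 4.53, and for *Mirg* 4.49 and 3.50 against 2.87 and 2.57. Both eKO libraries thus lay below both controls for *Mirg* per *Meg3* UMI, on 19 and 12 *Mirg* UMIs in the controls and 44 and 46 in eKO. Across the parental sides, *Meg3* UMIs per *Dlk1* UMI were 0.566 and 0.819 in the controls and 1.09 and 0.894 in eKO.

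**Figure D2:**
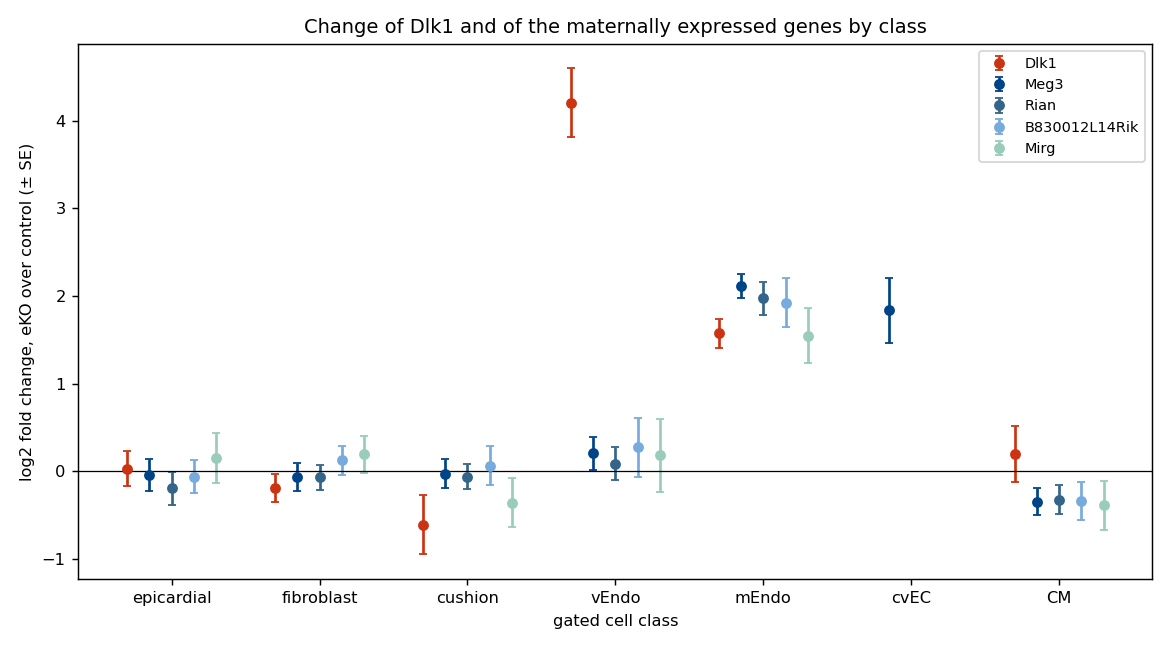
Log2 fold change (eKO over control, ± SE, n = 2 libraries per group) of *Dlk1* in red and of the maternally expressed genes in blue and green, for each gated class where the gene had enough counts for the fit. All 5 genes lay between 1.55 and 2.11 in mural endocardial (mEndo) cells, and *Dlk1* stood at 4.20 in gated valve endocardial (vEndo) cells. That valve value depended on the gate and was 2.29 with classes taken from clusters.

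Other classes showed a different picture. In valve endocardial cells *Dlk1* was at 6.01 and 3.74 CPM in the controls against 63.8 and 117 CPM in eKO (log2 fold change 4.20 ± 0.39), while *Meg3* was at 877 and 654 against 927 and 789 CPM (0.20 ± 0.19). The *Dlk1* groups did not overlap and the *Meg3* groups did. Here 60 of 9925 genes (0.605%) were called. The valve value depended on which cells were taken. Of the gated valve cells, 128, 126, 122 and 135 also fell in valve clusters, and these held 0 and 3 *Dlk1* UMIs in the controls and 11 and 14 in eKO, from 0, 3, 4 and 2 cells. A further 18, 16, 32 and 67 gated valve cells fell in mural clusters, and these held 8 and 2 against 66 and 97 *Dlk1* UMIs. With classes taken from clusters, valve *Dlk1* was at 0 and 3.66 CPM in the controls against 6.98 and 9.92 CPM in eKO (log2 fold change 2.29 ± 0.77). Barcodes rich in globin held 1.47 and 7.68 CPM of *Dlk1* in the controls against 5.76 and 14.2 CPM in eKO. The cluster values of eKO thus lay within that background.

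Coronary endothelial cells held little of the locus. *Meg3* went from 6.78 and 6.04 CPM to 12.9 and 30.3 CPM there (1.83 ± 0.38), in a class where 91 of 11212 genes (0.812%) were called. *Dlk1* was at 0.733 and 1.01 CPM in the controls against 2.38 and 10.6 CPM in eKO, below the count needed for the fit, and eKO replicate 2 carried 46 of its 55 eKO UMIs. Barcodes rich in globin held 41.3 and 52.4 CPM of *Meg3* and 5.76 and 14.2 CPM of *Dlk1* in eKO. Each value lay above that of coronary cells in the same library. Their control levels were 25.4 and 34.6 CPM of *Meg3* and 1.47 and 7.68 CPM of *Dlk1*. Immune cells of eKO lay below coronary cells, at 9.35 and 3.41 CPM of *Meg3* and 0.850 and 0.852 CPM of *Dlk1*. The part of background in the coronary values was not tested. The change of *Dlk1* in mural minus that in coronary cells was -1.51 ± 0.61 on the log2 scale, and -0.21 without eKO replicate 2. For *Meg3* this difference of changes was 0.33 ± 0.33, with -0.15 without eKO replicate 1 and 1.05 without eKO replicate 2. Against valve cells it was -2.63 ± 0.35 for *Dlk1* and 1.92 ± 0.16 for *Meg3*. Against mesenchymal cells it was 1.89 ± 0.16 for *Dlk1* and 2.28 ± 0.13 for *Meg3*, and these differences carry the contrast that chose the genes. With classes taken from clusters, *Dlk1* changed by 1.61 in mural and 2.29 in valve cells, and *Meg3* by 2.05 and 0.22. The gated *Dlk1* difference against valve cells thus depends on the gate.

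Outside the endothelium, *Dlk1* and *Meg3* were described in the same way. Fibroblasts held 66.4 and 52.3 CPM of *Dlk1* in the controls against 47.4 and 50.5 CPM in eKO, and 850 and 984 against 818 and 817 CPM of *Meg3*. Cushion mesenchymal cells, where 49 of 11910 genes (0.411%) were called, held 12.4 and 9.62 against 5.34 and 8.67 CPM of *Dlk1* (-0.61 ± 0.34) and 733 and 880 against 813 and 706 CPM of *Meg3* (-0.03 ± 0.17). Clusters of mesenchymal cells were also of unequal make-up. One cushion cluster of 1126 cells drew 394 and 598 from the controls and 86 and 48 from eKO. A fibroblast cluster of 382 cells drew 66 and 310 against 3 and 3. Cardiomyocytes held 106 and 146 against 90.4 and 91.0 CPM of *Meg3* (-0.35 ± 0.15), so both eKO libraries were the lower ones. Epicardial cells had overlapping *Dlk1* groups and a *Meg3* change of -0.04 ± 0.18.

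Genes of the mesenchymal list also differed between the groups in the mural class. The summed level of its 10 markers was 556 and 503 CPM in the controls against 858 and 803 CPM in eKO, with *Col3a1* the most abundant at 274, 244, 284 and 334 CPM. The largest difference in CPM was that of *Col1a2*, at 30.0 and 26.1 CPM against 185 and 138 CPM. The 6 fibroblast markers summed to 18.2 and 18.3 CPM against 106 and 87.2 CPM, mainly through *Lum* (8.40, 6.53, 66.0 and 52.5 CPM) and *Dcn* (6.58, 9.14, 36.6 and 30.8 CPM). The other 4 were *Tcf21* (0.560, 0, 0.166 and 0.440 CPM), *Pdgfra* (2.24, 1.87, 2.16 and 2.35 CPM), *Dpt* (0.420, 0.746, 0.663 and 0 CPM) and *Ogn* (0, 0, 0.663 and 1.03 CPM). The median mural cell held no UMI of the fibroblast list in any library. The 8 epicardial markers summed to 7.42, 10.4, 7.30 and 7.04 CPM, with *Upk3b* at 0.332 CPM or less. The 7 coronary markers summed to 47.1 and 35.8 CPM against 88.6 and 101 CPM, led by *Fabp4* at 30.4 and 24.4 against 72.3 and 84.7 CPM. The 9 markers of arterial wall and pericytes summed to 83.1 and 75.9 CPM against 126 and 109 CPM, and the 10 of cardiomyocytes to 859 and 445 against 806 and 1044 CPM, where the groups overlapped. Cycling markers also differed, with 796 and 1082 CPM against 1329 and 1564 CPM. The mural list itself summed to 4028 and 4075 CPM in the controls against 3390 and 3123 CPM in eKO. The part of these genes in the change of the locus was not tested.

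Genes on either side of the locus were compared in the same mural fit, in a window of 1 Mb each way that was chosen after values had been seen. Of 31 other genes there, 13 had enough counts, and 0 passed in edgeR (quasi-likelihood, Benjamini-Hochberg) or in DESeq2, while 3 had an unadjusted p under 0.05. Among all 12597 genes tested in this class, 429 (3.41%) were called in edgeR and 2607 had an unadjusted p under 0.05. The median log2 fold change of the 13 neighbours was -0.21, from -1.13 for *Eml1* (edgeR quasi-likelihood, Benjamini-Hochberg adjusted p = 0.0641) to 0.53 for *Begain*. *Yy1*, a transcription factor gene upstream of *Dlk1*, was at 121 and 127 CPM in the controls against 123 and 138 CPM in eKO. *Dio3*, the imprinted deiodinase gene at the far end of the domain, and its antisense neighbour *Dio3os* had 0 UMIs in mural cells of every library.

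**Figure D3:**
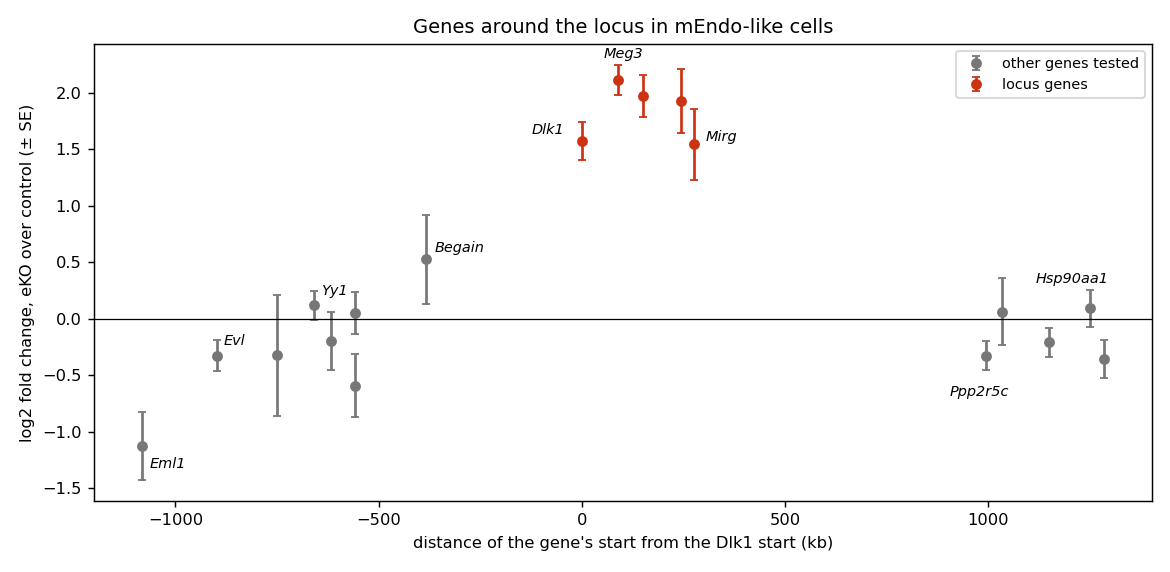
Log2 fold change (eKO over control, ± SE, n = 2 libraries per group) in mural endocardial cells against the distance of each gene's start from that of *Dlk1* (kb), for 5 locus genes in red and 13 other genes in grey. The locus genes lay between 1.55 and 2.11 and the others between -1.13 and 0.53. The locus genes were chosen by the difference drawn here, and the window after values had been seen, so nothing is read from their distance to the others.

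Other imprinted genes were read from a list. Of 25 listed, 22 were tested in mural cells and 0 were called by edgeR quasi-likelihood or by DESeq2, with 6 at an unadjusted p under 0.05 and a median log2 fold change of 0.06. Over all 12597 genes tested, 429 (3.41%) were called, 2607 had an unadjusted p under 0.05 and the median was 0.00. *Igf2*, the paternally expressed growth factor, was at 1904 and 1631 CPM in the controls against 1848 and 1577 CPM in eKO, and *H19*, its maternally expressed partner, at 4308 and 4419 against 4715 and 3788 CPM. Both groups overlapped. *Cdkn1c*, a maternally expressed inhibitor of the cell cycle, was at 5857 and 6196 CPM against 7235 and 8479 CPM (log2 fold change 0.43 ± 0.18, edgeR quasi-likelihood with Benjamini-Hochberg adjusted p = 0.206). It passed without eKO replicate 1 (0.55, adjusted p = 0.00762) and with no filter on low counts (0.44, adjusted p = 0.0273) in the same edgeR test. Of 15 factors that maintain imprints, such as *Zfp57* and *Dnmt1*, 14 were tested and 0 were called by edgeR or DESeq2, with 2 at an unadjusted p under 0.05 and a median of 0.05. Of 13 listed flanking genes, 10 were tested and 0 were called by edgeR or DESeq2, with 2 at an unadjusted p under 0.05 and a median of -0.27.

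The Notch pathway, to which *Dlk1* is related, was read from lists of ligands, receptors with their mediators, and targets. Of 8 ligand genes, 4 were tested and 0 were called by edgeR or DESeq2, with 1 at an unadjusted p under 0.05. That gene was *Dll4*, an activating ligand, at 27.5 and 25.9 CPM in the controls against 17.2 and 18.2 CPM in eKO (log2 fold change -0.54 ± 0.17, edgeR quasi-likelihood with Benjamini-Hochberg adjusted p = 0.107). Of 15 receptor and mediator genes, 14 were tested and 2 were lower by edgeR and 1 by DESeq2, with 7 at an unadjusted p under 0.05, in a class where 3.41% of all genes were called. *Mfng*, a glycosyltransferase that modifies Notch, went from 7.56 and 8.21 CPM to 1.99 and 3.08 CPM (-1.56 ± 0.32, edgeR quasi-likelihood with Benjamini-Hochberg adjusted p = 0.0251). *Maml3*, a coactivator of the Notch complex, went from 173 and 166 CPM to 120 and 105 CPM (-0.55 ± 0.13, edgeR quasi-likelihood with Benjamini-Hochberg adjusted p = 0.0400). The receptor gene *Notch1* was at 257 and 267 CPM against 214 and 217 CPM (-0.24 ± 0.13, edgeR quasi-likelihood with Benjamini-Hochberg adjusted p = 0.321), and *Rbpj*, the DNA-binding partner, at 68.1 and 70.9 against 74.8 and 63.4 CPM.

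Of 8 Notch target genes, 7 were tested and 1 was higher by edgeR and 0 by DESeq2, with 2 at an unadjusted p under 0.05. *Heyl*, a transcriptional repressor, went from 1.68 and 0.746 CPM to 5.14 and 4.11 CPM (1.89 ± 0.43, edgeR quasi-likelihood with Benjamini-Hochberg adjusted p = 0.0354). *Hey1* was at 20.0 and 17.5 CPM in the controls against 18.2 and 19.5 CPM in eKO, and *Nrg1*, which signals to the myocardium, at 364 and 391 against 295 and 330 CPM (-0.23 ± 0.14, edgeR quasi-likelihood with Benjamini-Hochberg adjusted p = 0.381). The calls of *Heyl*, *Mfng* and *Maml3* were each lost in several alternatives. *Heyl* was not called when any 1 library was left out (adjusted p from 0.0573 to 0.219 in the edgeR test), by DESeq2 (0.0943), with stricter gates (0.15) or with doublets kept (0.0774). *Mfng* was not called by DESeq2 (adjusted p = 0.0604), with cluster classes (0.0746 in the edgeR test) or without control replicate 1 (0.0769), control replicate 2 (0.135) or eKO replicate 1 (0.0579). *Maml3* was not called in the edgeR test without control replicate 1 (adjusted p = 0.242), control replicate 2 (0.256) or eKO replicate 2 (0.0866), with cluster classes (0.0518) or with doublets kept (0.0556).

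Detection was counted per cell after thinning each cell to 2000 UMIs, which left out 30 and 16 shallower mural cells of the controls and 23 and 72 of eKO. A UMI of *Dlk1* was found in 127 of 850 (14.9%) and 67 of 599 (11.2%) mural cells of the controls. In eKO these were 206 of 728 (28.3%) and 456 of 1260 (36.2%), so no eKO library overlapped a control. *Meg3* was found in 6.47% and 7.01% of mural cells in the controls and in 25.4% and 28.9% in eKO. Without thinning, the mean share for *Dlk1* was 29.8% in the controls and 53.8% in eKO, and for *Meg3* 15.4% and 47.0%.

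Immune cells served as the background. A *Dlk1* UMI was found there in 0 of 141 and 0 of 76 cells of the controls, which allows up to 2.13% and 3.95% (3 counts of the total, as for every 0 below), and in 0.592% and 0% (up to 1.20%) of eKO cells. For *Meg3* the immune shares were 0.709%, 0% (up to 3.95%), 1.18% and 0.4%. Median depths were 6185, 6835, 5701 and 3446 UMIs in immune and 6836, 7397, 7031 and 4363 UMIs in mural cells. Barcodes rich in globin held *Dlk1* in 0.417% and 2.42% against 1.34% and 2.81%, and *Meg3* in 2.50% and 4.84% against 3.13% and 5.34%, at median depths of 6788, 5562, 5064 and 5245 UMIs. Mural shares of *Dlk1* lay above both kinds of background in every library. For *Meg3* in the controls, the exact 95% intervals of mural cells (4.91% to 8.34% and 5.10% to 9.36%) overlapped those of globin-rich barcodes (0.923% to 5.36% and 1.80% to 10.2%). Summed *Meg3* levels were 59.3 and 64.0 CPM in mural cells and 25.4 and 34.6 CPM in globin-rich barcodes of the controls.

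*Dlk1* and *Meg3* were found in the same mural cell in 16 cells (1.88%, exact 95% interval 1.08% to 3.04%) of control replicate 1 and 5 cells (0.835%, 0.272% to 1.94%) of control replicate 2. In eKO they were found together in 64 cells (8.79%, 6.84% to 11.1%) of replicate 1 and 142 cells (11.3%, 9.58% to 13.1%) of replicate 2. The product of the separate shares was 0.967% and 0.784% in the controls and 7.19% and 10.5% in eKO, and it lay within the exact interval of the share found together in every library but control replicate 1. The odds ratio of finding both was 2.53 and 1.08 in the controls and 1.49 and 1.19 in eKO. On all UMIs it was 1.77 and 1.81 in the controls and 1.75 and 1.69 in eKO, where deeper cells show more of every gene. These intervals cover counting error within a library only.

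*Meg3* and *Rian*, a maternal pair, were found together in 7 and 4 thinned mural cells of the controls (0.824% and 0.668%) and in 33 and 56 of eKO (4.53% and 4.44%), fewer than *Dlk1* and *Meg3* in every library. Their odds ratio was 12.7 and 8.27 in the controls, on those few cells, and 5.40 and 4.0 in eKO. That of *Dlk1* and *Rian* was 1.32 and 1.79 in the controls and 0.554 and 1.25 in eKO. Of these 3 pairs, *Meg3* and *Rian* had the highest odds ratio in every library.

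Mural cells with and without a *Dlk1* UMI were compared for the maternal RNAs, a split added after values had been seen. *Meg3* stood at 60.8 CPM in cells with a *Dlk1* UMI and 58.3 CPM in cells without in control replicate 1, and at 66.8 and 62.5 CPM in control replicate 2. In eKO replicate 1 these were 266 and 236 CPM and in eKO replicate 2 they were 269 and 252 CPM. In the same order, *Rian* stood at 8.78 and 10.4, 15.9 and 10.7, 42.7 and 35.3, and 51.0 and 33.5 CPM. *B830012L14Rik* stood at 2.56 and 2.72, 5.48 and 2.83, 12.9 and 8.83, and 13.2 and 9.78 CPM. *Mirg*, on few UMIs, stood at 3.29 and 2.27, 3.83 and 1.41, 6.30 and 8.83, and 8.18 and 4.52 CPM.

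Cycling and other mural cells, also split afterwards, were counted at 2000 UMIs. *Dlk1* was found in 14% and 9.38% of cycling mural cells of the controls and in 19.8% and 37.4% in eKO. In mural cells that were not cycling it was found in 15.0% and 11.4% against 29.4% and 36.0%. *Meg3* was found in 10.5% and 3.13% against 29.6% and 23.6% of cycling mural cells, and in 6.18% and 7.48% against 24.9% and 29.8% of the others. The cycling cells numbered 57 and 65 in the controls and 81 and 186 in eKO.

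Valve endocardial cells were counted in the same way. *Meg3* was found in 46.2% and 41.5% of thinned cells in the controls and in 62.7% and 54.6% in eKO, and *Dlk1* in 1.40% and 0.704% against 5.70% and 12.2%. Both were found together in 0 of 143 and 0 of 142 control cells, which allows up to 2.10% and 2.11%, and in 3 and 8 cells of eKO (1.90% and 4.08%). The odds ratio in the eKO libraries was 0.276 and 0.369 after thinning, and 0.959 and 0.526 on all UMIs. Of the gated valve cells with *Dlk1* in eKO, 14 and 34 fell in mural clusters and 4 and 2 in valve clusters, so these odds ratios compare cells of both kinds of cluster. Epicardial cells held both in 84.8% and 62.0% of cells of the controls and in 73.6% and 77.7% in eKO, close to the products of the separate shares (85.2%, 63.2%, 73.2% and 77.2%).

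**Figure D4:**
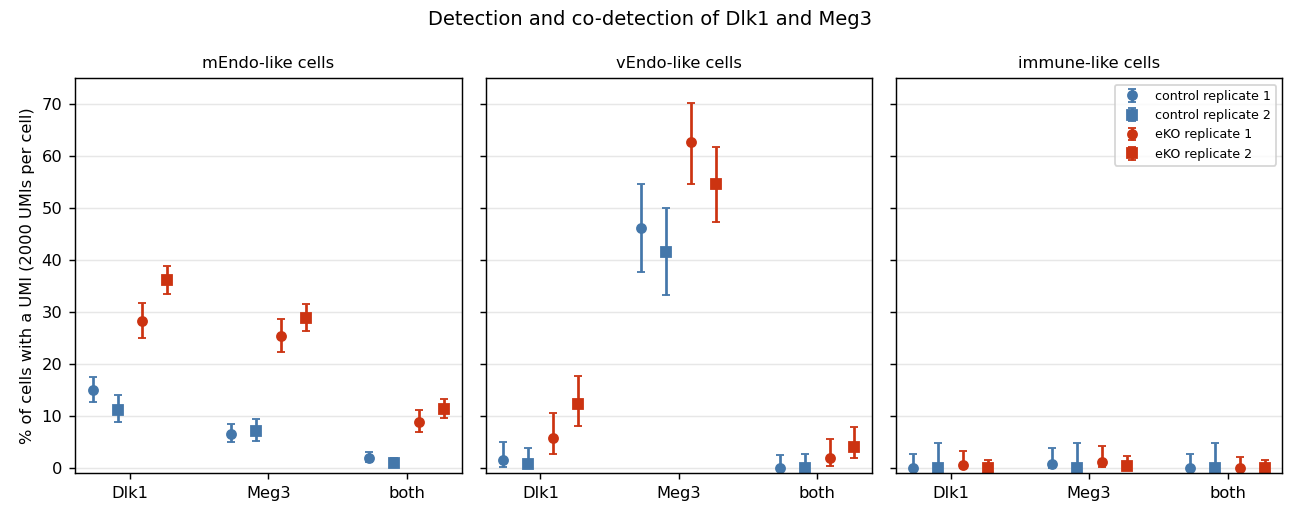
Percent of mural endocardial (mEndo), valve endocardial (vEndo) and immune cells with a UMI of *Dlk1*, of *Meg3* or of both after thinning to 2000 UMIs, 1 point per library, with exact 95% binomial intervals that cover counting error only. In mural cells both genes were found together in 1.88% and 0.835% of control and 8.79% and 11.3% of eKO cells.

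Likeness of pattern was measured as Pearson's r of log2 (CPM + 1) over the 8 classes in the controls, among 10033 genes, as a description. The genes closest to *Meg3* were *B830012L14Rik* (r = 0.996), *Rian* (0.994), *Mirg* (0.989), *Arnt2* (0.985) and the imprinted gene *Nnat* (0.971). Those closest to *Dlk1* were *Orc5* (0.969), *Ankrd27* (0.959), *Gm26760* (0.955), *Thumpd2* (0.955) and *Sugct* (0.949), none of them from the locus. Pearson's r does not measure how far levels range. Over the classes *Dlk1* ran from 0.867 to 1080 CPM, *Orc5* only from 15.4 to 27.7, *Ankrd27* from 9.13 to 22.5 and *Sugct* from 4.31 to 104 CPM. *Dlk1* and *Meg3* reached 0.670 with each other, over points that share their libraries.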

How the data were processed

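For each of the 4 libraries the authors deposited UMI counts per gene and cell barcode, not normalized, and the submitters name Cell Ranger 7.1.0, the mm10 build and Seurat 4.3.0. Barcodes with 200 to 7000 genes passed (11340, 7235, 9243 and 13851) where mitochondrial counts made up 20% or less, ribosomal 35% or less and hemoglobin 2% or less. The highest doublet scores against simulated doublets were removed at 0.8% per 1000 cells (1029, 419, 683 and 1535 cells).

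Cells were gated on the mean log level of each marker list, scaled to its 99th percentile (95th for subclasses), with a score of at least 0.4 and a lead of at least 0.25 (0.2 for subclasses) over the next list. These thresholds were set after 3 exploratory rounds in which marker separation and the levels of the locus genes in each class had been seen, so they are not independent of those levels. Cells left without a class numbered 680, 492, 802 and 1009. Sums of each class in each library went into edgeR 4.0.16 under R 4.3.3, using TMM scaling, filterByExpr and quasi-likelihood tests. Adjusted p-values are Benjamini-Hochberg over all genes tested, called at 0.05. For class differences the model had a term for each library, for class, and for class in eKO. The tests were tried on simulated counts. Other steps used Python 3.11.15 (igraph 0.11.9, matplotlib 3.10.9, scikit-learn 1.9.0, scipy 1.17.1, pandas 2.3.3, numpy 2.4.6), with seed 0.

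Tried beside this were Leiden clusters in place of gates, stricter gates (lead 0.4), cells kept from 1000 genes and up to 10% mitochondrial counts, and doublets left in. The fit was repeated by DESeq2 1.42.0, on total count scaling, unfiltered, blocked on replicate number and without each library in turn. Shares were also taken at 1000 and at all UMIs. Named genes were the 6 locus genes, *Ets1*, every gene of the lists past the threshold in mural cells, *Dll4*, *Nrg1*, *Notch1*, *Rbpj*, *Hey1*, *Igf2*, *H19* and *Cdkn1c*, and the 5 genes most like *Dlk1* and *Meg3*, and the neighbours named were added after values had been seen. The locus genes and the lists were chosen with earlier results of these data known. Splitting gated valve cells by cluster was also chosen after values had been seen. Differences of changes between classes were carried through the alternatives only for genes with more than 3 UMIs over the controls in both classes (*Dlk1*, *Meg3* and *Rian*), a limit set after the values of the other genes had been seen.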

Additional observations from a re-analysis of the deposited data

Results flagged for a closer look

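For several genes both eKO libraries lay on one side of both controls in mural endocardial cells and on the other side in another class. The difference between classes was not tested, and many of these log2 fold changes (± SE) lay within their error. In cardiomyocytes the log2 fold change was -0.35 ± 0.15 for *Meg3*, -0.32 ± 0.16 for *Rian* and -0.34 ± 0.22 for *B830012L14Rik*, all higher in mural cells. In fibroblasts it was -0.19 ± 0.16 for *Dlk1* and -0.0650 ± 0.16 for *Meg3*. In cushion mesenchymal cells it was -0.61 ± 0.34 for *Dlk1*, -0.0616 ± 0.14 for *Rian* and -0.36 ± 0.28 for *Mirg*. In epicardial cells it was -0.0411 ± 0.18 for *Meg3* and -0.0609 ± 0.19 for *B830012L14Rik*. *Ets1*, lower in mural cells, was higher in cardiomyocytes by 0.65 ± 0.12, at levels under 10 CPM, and did not pass edgeR's test there (quasi-likelihood, Benjamini-Hochberg adjusted p = 0.415).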

How the results depend on the processing

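Of 602 alternative values, 512 were labelled the same, 32 lost a call or fell, 9 gained one, 32 moved and 17 changed sign. The causes were not tested. The log2 fold change of *Dlk1* in mural cells ranged from 1.38 to 1.77 when a library was left out, and that of *Rian* from 1.77 to 2.18. In valve cells the same ranges were 3.72 to 4.6 for *Dlk1*, -0.0020 to 0.43 for *Meg3* and -0.24 to 0.65 for *B830012L14Rik*. Leiden clusters gave 2.29 for *Dlk1* and -0.11 for *Rian* in valve cells, and stricter gates gave -0.27 for *Rian*, -0.13 for *B830012L14Rik* and -0.29 for *Mirg*. The change in mural minus that in coronary cells ranged from -2.06 to -0.21 for *Dlk1* and from -0.15 to 1.05 for *Meg3*.

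List genes called higher in mural cells numbered 1, with 0 by DESeq2, stricter gates or no doublets removed, 4 with no filter on low counts, and 0 to 2 with a library left out. Those called lower numbered 2, with 1 by DESeq2 or no doublets removed, 0 with Leiden clusters, and 0 to 2 with a library left out. Of all genes, 429 were called, against 1063 with no filter and 145 to 974 with a library left out.

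Genes near 0 changed sign without a call. *Rbpj* (0.04) gave -0.0086 with total count scaling, -0.0021 with stricter gates and -0.0716 to 0.14 with a library left out. *Hey1* (0.05) gave -0.0486 with stricter gates and -0.0120 to 0.125 with a library left out. *Igf2* (0.00) gave -0.0458 with total count scaling, -0.0125 with Leiden clusters, -0.0029 with no doublets removed, -0.0002 with the stricter cell filter and -0.10 to 0.10 with a library left out. *H19* (0.01) gave -0.0375 with total count scaling and -0.145 to 0.145 with a library left out.

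The replicate numbers share only a label, and libraries of the same number deviated with r = -0.0519 over 6878 genes in mural and -0.160 in coronary cells. With the replicate block, *Dlk1* changed by 1.57 and *Meg3* by 2.11 in mural cells, *Igf2* by -0.0000 and *H19* by -0.0002, 4 list genes were higher, 3 were lower, and 1047 of all genes were called. In coronary cells 91 genes were called without a block, 119 with it and 379 with crossed numbers, a pairing chosen after seeing the data.

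At 1000 UMIs per cell and on all UMIs, *Dlk1* was found in 7.04% and 29.8% of mural cells of the controls and 19.1% and 53.8% in eKO, and *Meg3* in 4.80% and 15.4% against 19.5% and 47.0%. Both were found in 0.505% and 6.23% against 4.38% and 28.6%, and the odds ratio in eKO was 1.72 on all UMIs. With 2 libraries per group, small changes are mostly not detectable, and shares under about 1% rest on few cells. Leaving a library out leaves 1 in its group, which is assumed to vary like the others.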
